A study of Homo sapiens with 5 samples.

Results

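Messenger RNA of the death receptors FAS and TNFRSF10B, the initiator caspases CASP8 and CASP9, and the regulators CFLAR, XIAP and DIABLO was examined on Affymetrix arrays of LNCaP, a prostate cancer line of human origin that responds to androgen. The members were the probe sets, groups of short probes for 1 transcript, whose platform annotation symbol is TNFRSF10A, TNFRSF10B, FAS, CFLAR, CASP8, CASP9, XIAP or DIABLO. They numbered 25 of 22215 probe sets and stood for 7 of the 8 genes. No row analysed here names TNFRSF10A, so no value is given for it. Cells in RPMI medium with serum received celastrol, a triterpenoid compound, at 1.25 µM for 6 h (2 arrays) or the solvent DMSO for 6 h (3 arrays). The labels name no other agent and no genetic change of the line. The labels call the arrays of a group biological replicates and do not say whether the cultures were grown separately, so p-values measure the spread between these arrays.

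Death receptors are surface proteins of the tumour necrosis factor receptor family that assemble a complex with the adaptor FADD when their ligand binds. This complex activates caspase-8, and CFLAR, a caspase-8 relative without protease activity, competes for the same adaptor. Caspase-9 is activated by the apoptosome after mitochondria release cytochrome c. XIAP binds and blocks caspase-9 and the executioner caspases, and DIABLO, released from mitochondria, displaces XIAP from them. Most of this control acts on proteins, which the arrays did not measure.

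Levels below are log2(intensity + 1), and a change is the mean of celastrol minus the mean of DMSO replicates 1 and 2 on this log2 scale. Adding 1 makes the change of dim probe sets look smaller. Probe sets differ in how well they bind their transcript, so levels were not ranked between genes. DMSO replicate 3 is given apart. Its Pearson correlation with the other 4 arrays over all probe sets was at most 0.844, against at least 0.994 among those 4. The median level of 10 measured luminal prostate markers was 4.50 on it and 9.59 to 9.67 on the other 4, and that of 14 leukocyte and B cell markers was 8.88 against 4.29 to 4.37. The LNCaP label thus held for 4 arrays by luminal markers and not for this one. In RNA of whole cultures, fewer cells of a type and less RNA per cell cannot be told apart. Total intensity ran from 4939397 to 5348496 per array. Precision is limited by the small number of arrays.

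DNAJB1, a heat shock gene, passed the test with celastrol in these data, so promoters of the members were searched for the core of the heat shock element, the DNA pattern read by heat shock factors, and the matches at CFLAR and CASP8 are shown. RefSeq promoter windows of GRCh38.p14, each from 250 bases before to 50 after a start site, were searched for 6 members. TNFRSF10A and TNFRSF10B were not searched. For the heat shock element only the form GAANNTTC was searched. The count below thus does not show that the other windows lack further forms. The pattern GAANNTTC, which reads the same on both strands, was found in 2 of 19 windows, 1 of 4 for CFLAR and 1 of 3 for CASP8, and in 6.77% of all 35116 windows in the table. The stretches below run 5′ to 3′ on the plus strand up to the base before that start site, with the match in capitals, and were chosen after the search. CFLAR is at chr2:201132531-201132780 and CASP8 at chr2:201257785-201258034.
CFLAR: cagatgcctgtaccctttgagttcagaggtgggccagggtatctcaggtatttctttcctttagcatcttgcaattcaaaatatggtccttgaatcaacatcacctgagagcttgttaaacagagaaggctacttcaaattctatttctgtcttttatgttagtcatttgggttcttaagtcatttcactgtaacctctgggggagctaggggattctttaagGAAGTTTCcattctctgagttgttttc
CASP8: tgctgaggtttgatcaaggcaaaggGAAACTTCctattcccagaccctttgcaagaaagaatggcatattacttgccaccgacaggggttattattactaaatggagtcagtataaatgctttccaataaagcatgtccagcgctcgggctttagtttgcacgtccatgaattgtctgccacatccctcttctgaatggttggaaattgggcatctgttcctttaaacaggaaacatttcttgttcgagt
For NF-kB only the form GGGA and TTCC parted by any 2 bases was searched, on either strand. This form was found in 0 of the 19 windows and in 1.61% of all. Other forms of the NF-kB pattern were not searched, so the count does not show that the windows lack them. The STAT pattern TTCNNNGAA was found in 1 of 19, at CASP8, and in 7.66% of all, on either strand. A match of letters is a description of the window and not a binding site.

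The comparison asks whether these transcripts differed after 6 h of celastrol. A TNFRSF10B and a CFLAR probe set had the differences of smallest p, at 0.25 and 0.24 higher, and FAS, CASP8, CASP9, XIAP and DIABLO stayed within 0.20 of DMSO. The limma test, adjusted by Benjamini-Hochberg across the 22215 probe sets, called 0 of the 25 member probe sets, where 0.009% of all were called, namely DNAJB1 and JAG1. At an unadjusted limma p under 0.05 there were 2 members of 25, both higher, against 13.2% of all probe sets. Changes ran from -0.23 to 0.25 with a median of 0.03, against 0.00 over all probe sets, and 16 of 25 were above 0 (64.0%, against 48.3% of all). Probe sets of a gene are not separate measurements, and 11 of the 25 were of CFLAR, so this share was not tested. The 95% intervals of all 25 changes lay within 1 log2 unit of 0, the farthest bound being 0.77 from it. With 2 arrays against 2 an exact permutation test of a single probe set cannot go below p = 0.333 (two-sided), so the calls rest on limma's pooled variance.

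**Figure D1:**
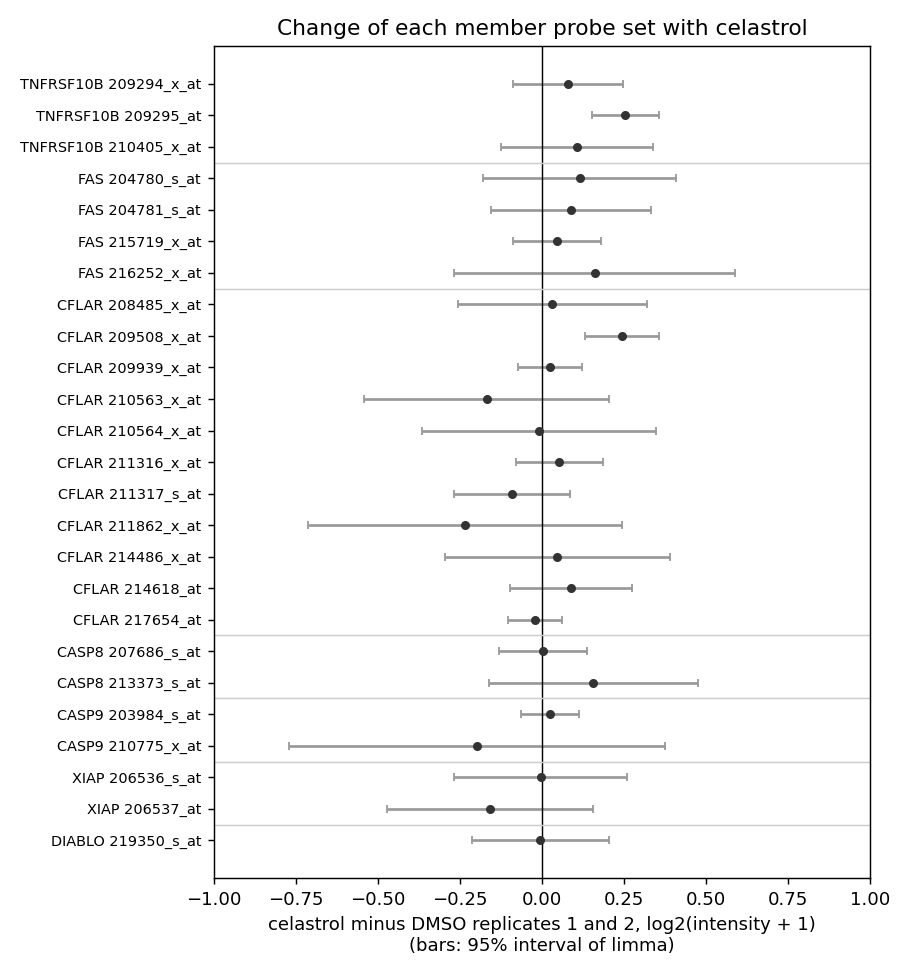
Change of each of the 25 member probe sets, celastrol (2 arrays) minus DMSO replicates 1 and 2, on the log2(intensity + 1) scale, as a point with limma's 95% interval as bars. The intervals of TNFRSF10B 209295_at and CFLAR 209508_x_at lie above 0, and the other 23 span it.

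TNFRSF10B encodes death receptor 5, a receptor for the ligand TRAIL. Probe set 209295_at read 8.56 and 8.53 on the celastrol arrays and 8.32 and 8.27 on DMSO replicates 1 and 2. The celastrol arrays were above both DMSO arrays, and the gap was wider than the spread within either group. The change was 0.25 (SE 0.0319, 95% interval 0.15 to 0.36), or 1.19-fold, with an unadjusted limma p of 0.00437 and an adjusted p of 0.147. The other probe sets of the gene showed a smaller difference. Probe set 210405_x_at read 8.37 and 8.20 with celastrol against 8.18 on each DMSO array, a change of 0.11 (95% interval -0.12 to 0.34). Probe set 209294_x_at read 8.21 and 8.09 with celastrol against 8.07 on each, a change of 0.08 (-0.09 to 0.25). All 3 thus had celastrol above both DMSO arrays, as did 14.5% of all probe sets. In the last 2 the lower celastrol array stood close to DMSO. The 3 probe sets are of 1 gene and not separate measurements. The suffix x marks probe sets whose probes can match other transcripts. DDIT3, the transcription factor CHOP known to act on the TNFRSF10B gene, stood 2.05 higher (SE 0.0939, limma adjusted p = 0.0696) in the same fit. Whether it had a part in the TNFRSF10B values was not tested.

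FAS encodes the receptor of FAS ligand. Its 4 probe sets were all at or above DMSO by little, with changes of 0.05 to 0.16, and 0 of them had an unadjusted limma p under 0.05. Probe set 204780_s_at read 5.55 on each celastrol array, and 5.33 and 5.55 on DMSO replicates 1 and 2, a change of 0.12 (95% interval -0.18 to 0.41). Probe set 204781_s_at read 5.66 and 5.69 with celastrol and 5.68 and 5.50 with DMSO, a change of 0.09 (-0.16 to 0.33). In each case DMSO replicates 1 and 2 differed from each other by more than the group means did. Probe sets 215719_x_at and 216252_x_at gave 1 and the same value on 3 of the 4 arrays, at 4.53 and 4.98, with DMSO replicate 1 lower at 4.43 and 4.66. Without DMSO replicate 1 the change of both was 0.00.

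**Figure D2:**
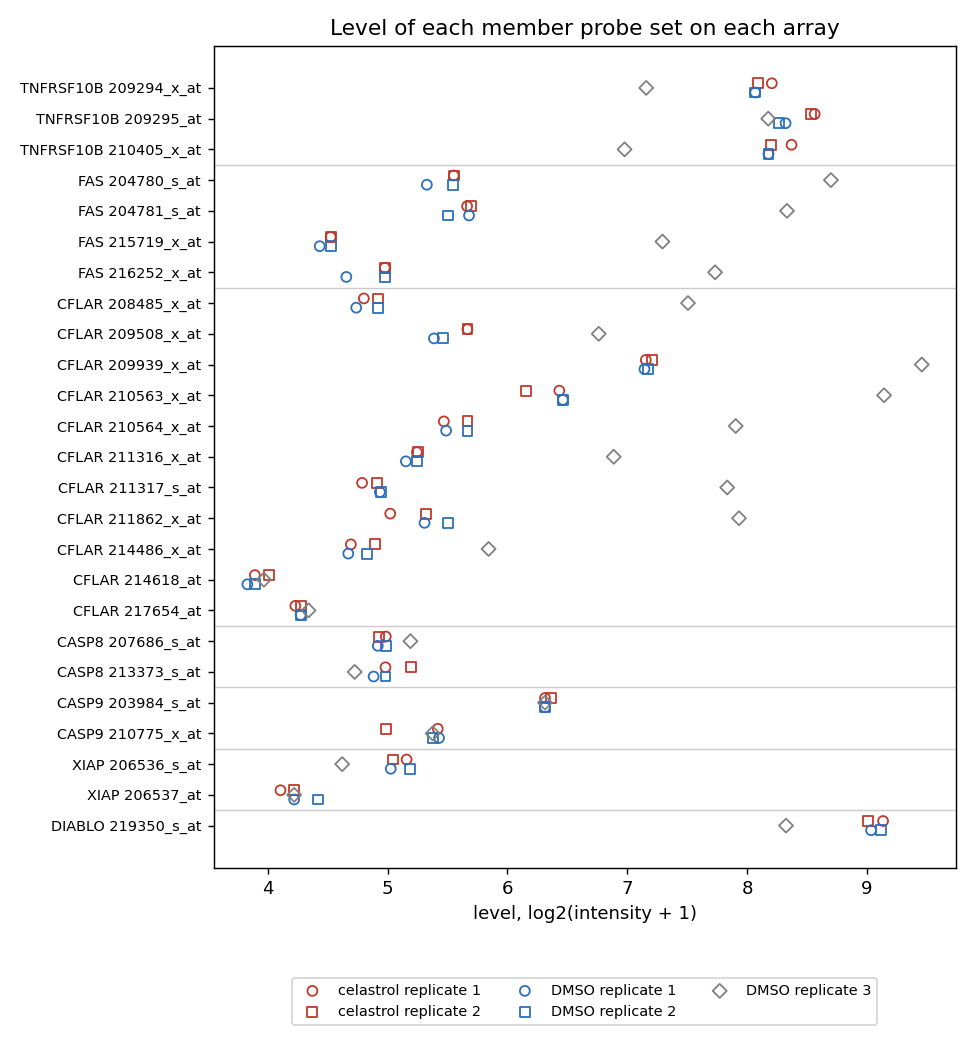
Level of each of the 25 member probe sets on each of the 5 arrays, as log2(intensity + 1), with celastrol in red, DMSO replicates 1 and 2 in blue and DMSO replicate 3 as grey diamonds. The red and blue symbols lie close together in every row, and the diamonds stand to the right for FAS and most CFLAR probe sets.

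CFLAR encodes the protein c-FLIP, which inhibits caspase-8 at death receptors, and had 11 probe sets that did not move one way. Of these, 6 were above 0 and 5 below, with a median change of 0.02. Probe set 209508_x_at read 5.67 on each celastrol array and 5.39 and 5.46 on DMSO replicates 1 and 2. The 2 celastrol values were tied, so the SE and p below draw only on DMSO and limma's pooled variance. The celastrol arrays were both higher, by 0.24 (SE 0.0349, 95% interval 0.13 to 0.36), or 1.18-fold, with an unadjusted limma p of 0.00635 and an adjusted p of 0.168. The brightest CFLAR probe set, 209939_x_at, read 7.16 and 7.21 with celastrol against 7.14 and 7.17 with DMSO, and its groups overlapped. Its change was 0.02 (95% interval -0.07 to 0.12), an interval that ends below that of 209508_x_at.

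Other CFLAR probe sets leaned to the lower side. Probe set 210563_x_at read 6.43 and 6.16 with celastrol against 6.46 on each DMSO array, a change of -0.17 (-0.54 to 0.20). Probe set 211862_x_at read 5.02 and 5.32 against 5.31 and 5.51, a change of -0.23 (-0.71 to 0.24). Probe set 211317_s_at read 4.79 and 4.91 against 4.94 and 4.95, a change of -0.09 (-0.27 to 0.08). These are the 3 lowest CFLAR changes. In 210563_x_at and 211317_s_at both celastrol arrays lay below both DMSO arrays, as in 17.6% of all probe sets. The other 6 CFLAR probe sets had changes between -0.02 and 0.09. Probe sets of the gene can report different transcript forms, and which form each reports was not analysed here.

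In the initiator caspases the groups overlapped in all 4 probe sets. CASP8 encodes caspase-8, the first protease of the death receptor complex. Probe set 207686_s_at read 4.99 and 4.93 with celastrol against 4.92 and 4.99 with DMSO, a change of 0.00 (95% interval -0.13 to 0.14). Probe set 213373_s_at read 4.98 and 5.20 against 4.88 and 4.98, a change of 0.16 (-0.16 to 0.47), with celastrol replicate 2 standing highest. CASP9 encodes caspase-9, the protease of the apoptosome. Probe set 203984_s_at read 6.31 and 6.36 with celastrol and 6.31 on each DMSO array, a change of 0.02 (-0.06 to 0.11). Probe set 210775_x_at read 5.42 and 4.99 against 5.43 and 5.38, a change of -0.20 (-0.77 to 0.37). There celastrol replicate 2 alone was low, and without it the change was 0.02.

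XIAP encodes an inhibitor of caspases and DIABLO its mitochondrial antagonist. XIAP probe set 206536_s_at read 5.16 and 5.05 with celastrol against 5.03 and 5.19 with DMSO, so the groups overlapped fully. Its change was 0.00 (95% interval -0.27 to 0.26). Probe set 206537_at was dim, at 4.11 and 4.22 against 4.22 and 4.42, a change of -0.16 (-0.47 to 0.15). DIABLO had 1 probe set, 219350_s_at, at 9.14 and 9.01 with celastrol against 9.04 and 9.12 with DMSO. Its change was -0.01 (-0.21 to 0.20), with both DMSO arrays between the celastrol arrays.

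Over the members, celastrol lay above both DMSO arrays for 6 of 25 probe sets and below both for 2, against 14.5% and 17.6% of all probe sets. Of the 6 higher ones 3 belonged to TNFRSF10B, 2 to CFLAR and 1 to FAS, and the lower ones were both of CFLAR. Among the 6, the gap between groups was slight for some. The lowest celastrol and highest DMSO values were 5.2449 and 5.2425 for CFLAR 211316_x_at and 5.5524 and 5.5461 for FAS 204780_s_at. They were 8.0882 and 8.0679 for TNFRSF10B 209294_x_at, and 8.201 and 8.1787 for TNFRSF10B 210405_x_at. They were farther apart for TNFRSF10B 209295_at (8.5319 and 8.3218) and CFLAR 209508_x_at (5.6668 and 5.4597). The counts thus do not measure the size of a shift. The deposited values held ties: 13 of the 25 had the same value on at least 2 of the 4 arrays, against 57.9% of all probe sets. On each filter of dim probe sets, which leaves out the 40% with the lowest mean, 0 members were called. With the mean taken over the 4 arrays 21 members were kept, where 0.908% of all probe sets were called, and with the mean over all 5 arrays 22 were kept, where 0.975% were called.

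A wider list of 67 death pathway genes, grouped by role, had 56 genes with a probe set of their own, and 0 were called in either direction, where 0.0164% of 12165 genes were called. At an unadjusted limma p under 0.05, 6 were higher and 3 lower, against 6.3% and 8.8% of all genes. The median change of the 56 was 0.00, as it was over all genes (0.00). The list was written with earlier results of these data known. Each of its genes was read by the brightest probe set naming it alone. Where a gene had several, as TNFRSF21 with 2, the values of the rest are not shown.

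Receptors outside the members held the largest differences of that list. TNFRSF21, which encodes death receptor 6, read 8.43 and 8.31 with celastrol against 7.12 and 7.24 with DMSO, so the groups were far apart. Its change was 1.19 (SE 0.0709, 95% interval 0.96 to 1.42), or 2.28-fold, with an adjusted limma p of 0.0853. It passed the threshold with either dim filter (adjusted p = 0.0481 and 0.0466), with quantile normalization (adjusted p = 0.022) and with arrays centred on their medians (adjusted p = 0.0346). Those last 2 settings called 0.887% and 0.626% of all probe sets. TNFRSF1A, the main receptor of tumour necrosis factor, read 8.12 and 7.94 against 7.34 and 7.30, a change of 0.71 (SE 0.0766, limma adjusted p = 0.132). Of 9 measured receptors and decoys 7 were above 0, with a median of 0.07, and 4 of the 9 lay in the dimmest 40%. All 7 measured death ligands lay there, and their median was 0.02. LTA and TNF, which had the smallest p, differed by 0.07 and 0.09.

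**Figure D3:**
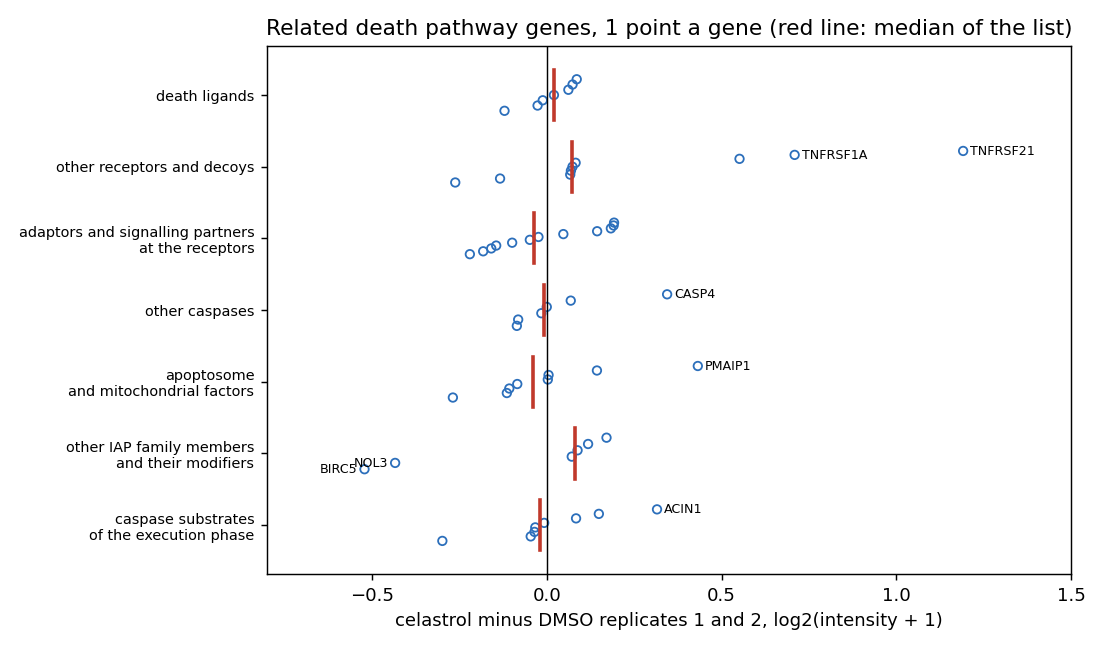
Change with celastrol of 56 related death pathway genes on the log2(intensity + 1) scale, 1 point a gene, grouped in 7 lists by role with the median of each as a red line. Medians lie between -0.04 and 0.08, and TNFRSF21 at 1.19 and TNFRSF1A at 0.71 stand far to the right.

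Among 12 adaptors and signalling partners 5 were above 0, with a median of -0.04. CRADD, an adaptor that links caspase-2 to death domain proteins, read 6.87 and 6.79 with celastrol against 7.02 and 7.01, a change of -0.18 (limma adjusted p = 0.236), and PIDD1, its partner in that complex, read 5.12 and 5.11 against 4.82 and 5.04, a change of 0.18. With 1 array left out the PIDD1 change ran from 0.07 to 0.30. Of 6 other caspases 2 were above 0. CASP4, an inflammatory caspase, read 6.48 and 6.29 against 6.05 and 6.03, a change of 0.34 (adjusted p = 0.273), and the executioner CASP6 read 6.49 and 6.53 against 6.53 and 6.66, a change of -0.09. With 1 array left out the CASP6 change ran from -0.16 to -0.02. Both pairs thus hold 1 gene on either side of 0.

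Among 8 apoptosome and mitochondrial factors 4 were above 0. PMAIP1, which encodes the BH3-only protein NOXA, read 6.45 and 6.29 with celastrol against 5.96 and 5.91, a change of 0.43 (SE 0.0723, limma adjusted p = 0.188). SEPTIN4, whose ARTS form binds XIAP, was dim and differed by 0.14. Of 6 other IAP family members and modifiers 4 were above 0, yet the 2 with the smallest p were lower. BIRC5, which encodes survivin, read 7.94 and 7.59 against 8.37 and 8.20, a change of -0.52 (SE 0.16, adjusted p = 0.374). NOL3, a caspase recruitment domain protein that blocks death signalling, read 7.12 on each celastrol array against 7.71 and 7.40, a change of -0.43 (SE 0.13, adjusted p = 0.365). Of 8 execution phase substrates 3 were above 0, with ACIN1 at 0.32 and LMNA at 0.15.

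The genes with the pattern most like that of a member were taken by Euclidean distance over the 5 arrays, after each probe set was centred on its own mean. For TNFRSF10B 209295_at they were ZNF432, GADD45G and LOC100294145, at distances of 0.0497, 0.093 and 0.0975, where the median gene lay at 0.478. They differed with celastrol by 0.26, 0.31 and 0.27. For CFLAR 211317_s_at, the member of smallest p on the lower side, they were RAB31, MYO1E and PTPN22, at 0.0479, 0.0608 and 0.0657 against a median of 2.64. Each of these 3 stood 2.84 to 2.90 higher on DMSO replicate 3, and that CFLAR probe set 2.89 higher. This likeness too follows from the choice, and MYO1E and PTPN22 were dim on the 4 arrays.

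On DMSO replicate 3 the members fell into 3 kinds. FAS and most of CFLAR were far higher than on DMSO replicates 1 and 2, TNFRSF10B and DIABLO were lower, and CASP8, CASP9 and XIAP stood within 0.49. Of the 25 probe sets 13 were over 2-fold higher, against 7.52% of all, and 1 was over 2-fold lower, against 10.1%. This is 1 array, so there is no test. FAS 204780_s_at read 8.70 there, 9.60-fold above the mean of DMSO replicates 1 and 2, and all 4 FAS probe sets stood at least 6.69-fold higher. Of 11 CFLAR probe sets 9 were 2.13-fold to 7.43-fold higher, among them 209939_x_at at 9.46. The exceptions, 214618_at and 217654_at, were near the dim end at 3.97 and 4.34.

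**Figure D4:**
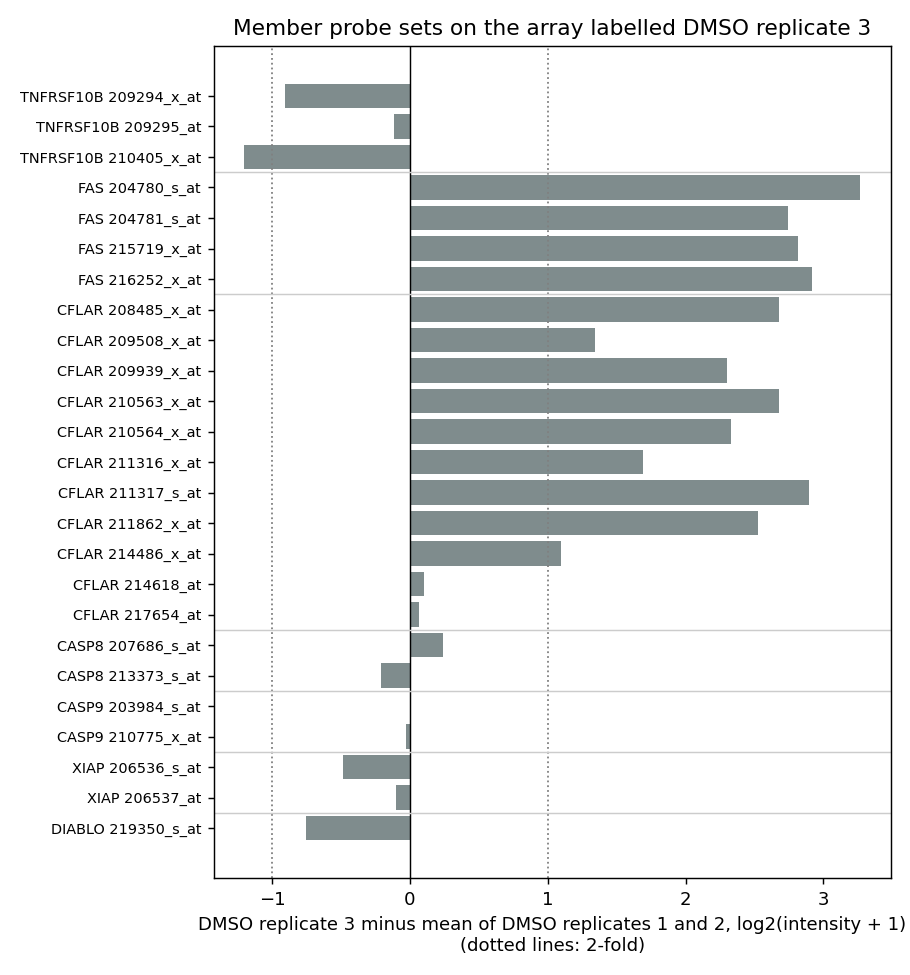
Level on the array labelled DMSO replicate 3 minus the mean of DMSO replicates 1 and 2 for each of the 25 member probe sets, on the log2(intensity + 1) scale, with dotted lines at 2-fold. All 4 FAS and 9 of 11 CFLAR bars pass the right-hand line, and TNFRSF10B 210405_x_at alone passes the left-hand one.

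TNFRSF10B 210405_x_at and 209294_x_at read 6.98 and 7.16 on this array, -1.20 and -0.91 from the other DMSO mean, while 209295_at read 8.18, only -0.12 from it. DIABLO read 8.33, a difference of -0.75. CASP9 203984_s_at gave 6.31, the value it had on 3 of the other arrays. Of the 56 related genes 14 were over 2-fold higher and 7 over 2-fold lower, against 8.29% and 12% of all genes. TNFAIP3, an inhibitor of NF-kB signalling, and TRAF1, a receptor partner, stood highest, at 5.03 and 4.46 above, and were picked out after their values were seen. On the same array 10 of 14 leukocyte and B cell markers were over 2-fold higher and 9 of 10 luminal markers over 2-fold lower. The summed log2 level of the leukocyte list was 120 there and 65.9 to 66.4 on the other 4, and that of the luminal list 45.4 against 88.4 to 91.4. Their part in the FAS and CFLAR values was not tested.

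With DMSO replicate 3 counted as a control, 12 of the 25 changes took the other sign. All 4 FAS changes then lay between -0.97 and -0.81, and CFLAR 209508_x_at moved from 0.24 to -0.20, although the celastrol arrays were the same. TNFRSF10B 209295_at moved little, from 0.25 to 0.29. The limma fit on all 5 arrays called 0 members and 0% of all probe sets, with a smallest adjusted p of 0.876 among members. In that fit 2.81% of all probe sets had an unadjusted p under 0.05.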

How the data were processed

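Messenger RNA was measured on 5 Affymetrix arrays, 2 of celastrol and 3 of DMSO by their titles. For DMSO samples the description names celastrol, so titles and treatment protocols decided the group. The deposited table holds linear intensities, 1 for each probe set on each array. RMA, which corrects background, normalizes between arrays and summarizes probes, made these values, per the submitters' processing notes. Its version is not given in the sources used here. Gene names came from the platform annotation: 19724 of 22215 probe sets name 1 gene, 568 several and 1923 none, and the Entrez look-up changed 0 symbols. Values were taken as log2(intensity + 1) with no further normalization. The fit was limma (version 3.58.1, R 4.3.3; lmFit and eBayes, two-sided) on celastrol replicates 1 and 2 and DMSO replicates 1 and 2, with 2 residual degrees of freedom, adjusted by Benjamini-Hochberg over all probe sets at a threshold of 0.05. For a related gene the brightest probe set naming it alone, by the mean of the 4 arrays, was used. The fit was also run on simulated data with known changes. These were drawn from a normal distribution and lack the ties of the deposited values, and no result here rests on them. Promoters came from RefSeq (GRCh38.p14).

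The members, the gene lists and the setting apart of DMSO replicate 3 were chosen with earlier results of these data known. Named genes are all members, up to 2 related genes of smallest p in each list, the 3 genes nearest to the member of smallest p in each direction, and DDIT3. JAG1 is named as 1 of the 2 probe sets called. TNFAIP3, TRAF1, TMPRSS2, KLK3, KRT18 and KRT8 fall outside that rule and were chosen after their values were seen. HMOX1 and DNAJB1 were set in that rule as checks of the response: HMOX1 stood 5.94 higher (limma adjusted p = 0.0622) and DNAJB1 2.21 higher (adjusted p = 0.0421). Fibroblast and endothelial markers were checked too: 0 of 8 and 0 of 5 were called with celastrol, and on DMSO replicate 3 there was 1 fibroblast marker over 2-fold higher, 1 over 2-fold lower, and no endothelial marker past 2-fold. Of the luminal and leukocyte markers, 0 were called with celastrol, but 6 of 10 luminal and 3 of 14 leukocyte markers had an unadjusted limma p under 0.05, against 13.2% of all probe sets. The luminal median change was -0.10, with TMPRSS2 at -1.08 (limma adjusted p = 0.0654) and KLK3 at -0.65 (adjusted p = 0.174). Of those 6 luminal markers KRT18 and KRT8 were higher with celastrol, by 0.27 and 0.11, and the rest were lower. TMPRSS2 passed the threshold where dim probe sets were filtered by the mean over 5 arrays (limma adjusted p = 0.0369). In that setting HMOX1 passed too (limma adjusted p = 0.03). Alternatives were all 5 arrays, filters on dim probe sets, quantile and median normalization, log2(intensity + 16), a variance trend, robust variance, a replicate block, another probe set for a related gene, and each array left out.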

Additional observations from a re-analysis of the deposited data

Results flagged for a closer look

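The array labelled DMSO replicate 3, which the comparison with celastrol does not use, held FAS and CFLAR above the level of DMSO replicates 1 and 2. On the log2 scale the FAS probe sets stood higher by 3.26 for 204780_s_at, 2.74 for 204781_s_at, 2.81 for 215719_x_at and 2.92 for 216252_x_at. CFLAR stood higher by 2.68 for 208485_x_at, 1.34 for 209508_x_at, 2.30 for 209939_x_at, 2.68 for 210563_x_at and 2.33 for 210564_x_at. Further CFLAR probe sets stood higher by 1.69 for 211316_x_at, 2.89 for 211317_s_at, 2.53 for 211862_x_at and 1.09 for 214486_x_at. Most CFLAR probe sets carry the suffix x and can share probes or targets, so they are not separate measurements of the gene.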

How the results depend on the processing

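The count of member probe sets called by limma was 0 under all 13 alternatives, including 0 with the replicate block and 0 to 0 with 1 of the 4 arrays left out. The lowest adjusted p of TNFRSF10B 209295_at over them was 0.102 and the highest 0.876, and its change on 4 or fewer arrays ran from 0.23 to 0.29. For CFLAR 209508_x_at the change ran from 0.18 to 0.28 on 4 or fewer arrays and was -0.20 on all 5, and the adjusted p over all alternatives ran from 0.0959 to 0.909. The count of related genes called was 0 as reported and with the replicate block, and 0 to 0 with 1 array left out and 0 when other probe sets stood for the genes. It was 1, TNFRSF21, with either dim filter, with arrays centred on their medians and with quantile normalization; the cause was not tested. Over all alternatives the adjusted p of TNFRSF21 ran from 0.022 to 0.876. Calls over all probe sets went from 2 to 121 and 130 with the dim filters, 139 with median centring, 197 with quantile normalization, 43 with log2(intensity + 16), 3 with robust variance, 1 with a variance trend, and 0 with the block, with all 5 arrays or with 1 array left out. Of the 25 member changes 12 kept their sign in every setting of 4 or fewer arrays, and leaving out 1 array turned or zeroed the sign of 3 to 7. Quantile normalization and median centring turned 3 each, all of them near 0. Arrays with the same replicate number did not deviate together (r = -0.0197 between the replicate differences of the 2 groups over 22215 probe sets). Signal over background limits the dim probe sets, since no detection call was used.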
